A study of Homo sapiens with 24 samples.

Results

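Residual medium, the liquid left over after extracellular vesicles had been isolated, was compared with fresh serum-free medium in HPDE-H6c7 cells (here HPDE), an immortalised line of human pancreatic duct epithelium. The comparison took the 6 libraries of these 2 treatments, 3 of each, out of 24 in the series, and the 12223 of 48162 listed genes whose mean FPKM (reads per gene length and per total reads of the library) was at least 1 over all 12 HPDE libraries. Fresh-medium cells received new serum-free medium, residual-medium cells received the leftover liquid, and the other 6 HPDE libraries received 1e10 vesicles per well shed by the carcinoma line PANC-1 or by PPCL-68 cells. Every group was treated for 24 h after growth in serum-free keratinocyte medium with antibiotics, and the labels name no other agent. The same 4 treatments were given to hTERT-HPNE cells (called HPNE below), another pancreas line, immortalised with telomerase, which entered the comparison between the lines at the end and 1 sentence on gene length. The labels do not say which cells had been kept in the residual medium, in what amount it was added or how it differed from fresh medium. Both treatments used 1 established line, the replicates are described as biological triplicates without naming separate cultures, and the p-values measure the spread between these libraries.

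Epithelia answer bacterial products and cytokines of the interleukin 1 family through NF-κB, a transcription factor held in the cytoplasm by inhibitors until a receptor signals. Its target genes encode chemokines that attract neutrophils, growth factors for myeloid cells, antimicrobial proteins and the inhibitors that end the response. Squamous epithelia also make small proline-rich proteins and other cross-linked envelope proteins when they are stressed or differentiate. HPDE cells are kept in keratinocyte medium and express genes of both duct and basal squamous epithelium.

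The line label was checked on marker genes. Of 10 duct epithelium markers 8 had a mean FPKM of at least 1, and their summed level was 2794 to 3037 FPKM in fresh medium and 3159 to 3537 FPKM with residual medium. All 10 basal squamous markers had a mean of at least 1, with sums of 3846 to 3906 FPKM in fresh medium and 2724 to 3087 FPKM with residual medium. Much of the lower sum was that of the abundant KRT5, described below. In the test below 1 of the 10 was called higher, 3 lower and 6 neither, with a median log2 difference of -0.10. Other cell types were close to absent: summed levels did not exceed 8.45 FPKM for 10 fibroblast markers, 2.95 for 8 leukocyte markers, 1.71 for 8 acinar markers, 0.228 for 6 endocrine markers and 0.234 for 5 endothelial markers. The acinar genes PRSS1, CPB1, AMY2A, CELA3A and PNLIP and the endocrine genes INS, GCG, SST and IAPP had 0 reads in all 6 libraries. The libraries held 30169822 to 42206773 reads on genes, 22003 to 23080 genes had at least 1 read, and mitochondrial genes held 0.872 to 1.25% of reads. The root mean square log2 distance was 0.133 to 0.169 for the 6 pairs of libraries of one group and 0.225 to 0.267 for the 9 pairs of a fresh-medium and a residual-medium library, so no library stood apart from its group.

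Residual medium raised a group of inflammation and barrier genes several-fold and changed many other genes a little. By limma with Benjamini-Hochberg adjustment, 2443 genes differed, 20.0% of those tested. Of these, 1214 (9.93%) were higher and 1229 (10.1%) lower with residual medium. Most differences were small: the median absolute value among called genes was 0.27 on the log2(FPKM + 1) scale, on which all log2 differences below are given. Differences of at least 1 on that scale, where a value of 1 is a 2-fold change for a well expressed gene, numbered 56 (0.458%). They comprised 50 higher genes (0.409% of those tested) and 6 lower genes (0.0491%). Of the 50 higher genes, 30 stood on 4 lists of antimicrobial, cytokine, NF-κB response and cornified envelope genes; those lists were written with results of these data known, so this count is a description. Without fresh-medium replicate 1, fresh-medium replicate 3 or residual-medium replicate 1 the number of called genes was 1423, 1617 and 1577, whereas the number past 1 stayed between 49 and 57 without any single library. After a trend with gene length was removed from each library, described further on, 1138 genes were higher (9.31%) and 748 lower (6.12%), a split of 60.3% higher against 49.7% before.

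**Figure D1:**
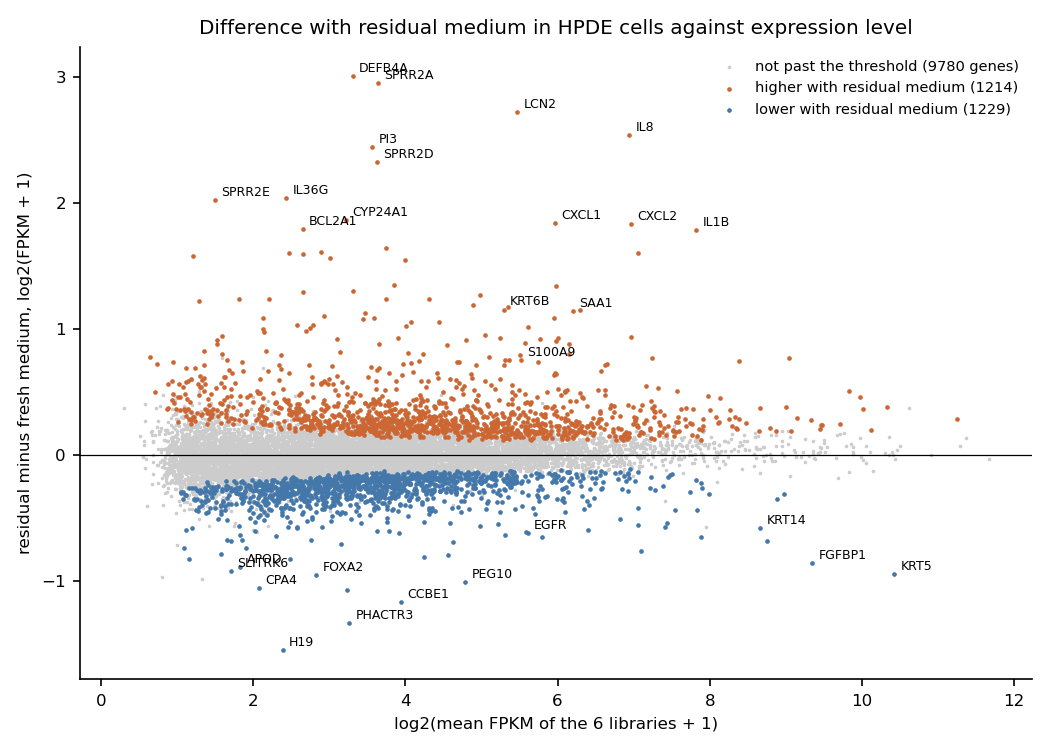
Each point is 1 of the 12223 genes tested; the x axis is the expression level, log2 of the mean FPKM of the 6 libraries plus 1, and the y axis the log2(FPKM + 1) difference of residual minus fresh medium, with called genes in colour. The largest rises (up to 3.01, DEFB4A) exceed the largest falls (-1.55, H19), and KRT5 and FGFBP1 are the fallers of highest expression among the labelled genes.

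Antimicrobial and acute-phase genes held the largest rises. Of the 45 listed genes 15 were expressed highly enough to be tested; 11 were called higher (against 9.93% of all genes) and 1 lower, and the median log2 difference was 0.91 against -0.0094 over all genes tested. DEFB4A (ENSG00000171711, hg19 chr8:7752151-7754233), which encodes a defensin peptide that kills bacteria, had 1.74, 0.998 and 0.786 FPKM in the 3 fresh-medium libraries and 12.2, 16.5 and 21.2 FPKM in the 3 residual-medium libraries. The lowest residual-medium library was thus far above the highest fresh-medium one, and the log2 difference was 3.01 (SE 0.17, adjusted p 2.08e-08). Its near-identical copy DEFB4B went from a mean of 0.147 to 2.46 FPKM, and the way reads were divided between both copies is not stated. LCN2 (ENSG00000148346, chr9:130911350-130915734), which encodes the iron-carrier-binding protein lipocalin 2, had 9.47, 10.6 and 12 FPKM in fresh medium and 74.3, 75.7 and 78.3 FPKM with residual medium. The libraries of each group lay close together, and the log2 difference of 2.72 (SE 0.06) had the smallest adjusted p of all genes, 1.28e-12. PI3, the elastase inhibitor elafin, rose from 3.04, 2.67 and 2.2 FPKM to 24.3, 17.8 and 15.1 FPKM. Its residual-medium libraries spread more than those of LCN2. Its groups did not overlap, which the rule that named it required.

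The acute-phase apolipoproteins SAA1 and SAA2 followed, although they share much of their sequence and their individual values are uncertain. SAA1 had 44.1, 44.9 and 46.4 FPKM in fresh medium and 102, 96.6 and 103 FPKM with residual medium (log2 difference 1.14, SE 0.08, adjusted p 3.19e-07). C3, the central complement component, rose from 42.8 ± 1.54 to 81.1 ± 4.6 FPKM (SD, n = 3 libraries in each group, as for all such values), and the protease inhibitor SLPI from 18.3 ± 2.28 to 35.4 ± 4.32 FPKM. S100A9, a calcium-binding subunit of calprotectin, rose from 33 ± 2.08 to 56.5 ± 6.44 FPKM. Its partner S100A8 was too weakly expressed to be tested, with 0.216 and 1.05 FPKM on average.

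Chemokines and cytokines were the other group with large rises. Of 42 listed genes 29 were tested, 20 were called higher and 0 lower by limma (also 0 lower at an unadjusted p under 0.05 and by voom on recovered reads), with a median log2 difference of 0.77. IL8 (ENSG00000169429, chr4:74606223-74609433), the neutrophil chemokine now named CXCL8, had 31.2, 36.5 and 37.3 FPKM in fresh medium and 175, 226 and 226 FPKM with residual medium, a log2 difference of 2.54 (SE 0.09, adjusted p 8.48e-10). CXCL1 had 20.2, 29.2 and 30.4 FPKM in fresh medium and 98.9, 95.9 and 94.3 FPKM with residual medium. CXCL2 had 44.5, 55.5 and 62.6 FPKM and then 174, 200.1 and 209 FPKM. For each of these neutrophil chemokines every residual-medium library was above every fresh-medium one, as the rule that named them required. Fresh-medium replicate 1 was the lowest of the 6 libraries for each. The 4 genes tested in the hg19 span chr4:74606223-74965010 were IL8, CXCL1, CXCL2 and CXCL3, and all 4 were called higher; genes in one cluster are not independent of each other.

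The promoters of the neighbouring chemokine genes are shown because the genes rose together and 3 of them carry the same short stretch at nearly the same place; LCN2 is shown as the gene with the smallest p-value. Each line gives the 250 bases before the annotated start from RefSeq (GRCh38.p14). Capitals mark matches, on either strand, to the κB motif that NF-κB binds (GGGRNNYYCC), to AP-1 (TGANTCA) and to C/EBP (TTGCNNAA). Here R is A or G, Y is C or T and N is any base.
CXCL1, chr4:73869143-73869392, plus strand: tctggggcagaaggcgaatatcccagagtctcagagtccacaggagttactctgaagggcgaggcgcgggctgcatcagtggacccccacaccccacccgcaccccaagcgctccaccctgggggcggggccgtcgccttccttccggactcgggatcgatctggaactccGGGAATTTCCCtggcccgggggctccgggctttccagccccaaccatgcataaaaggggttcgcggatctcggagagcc
CXCL2, chr4:74099196-74099445, minus strand: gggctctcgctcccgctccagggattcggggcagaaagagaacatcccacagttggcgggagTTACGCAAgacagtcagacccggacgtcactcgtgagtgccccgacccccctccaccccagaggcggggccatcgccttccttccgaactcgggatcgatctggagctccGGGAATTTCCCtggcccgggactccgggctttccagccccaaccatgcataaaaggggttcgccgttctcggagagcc
CXCL3, chr4:74038690-74038939, minus strand: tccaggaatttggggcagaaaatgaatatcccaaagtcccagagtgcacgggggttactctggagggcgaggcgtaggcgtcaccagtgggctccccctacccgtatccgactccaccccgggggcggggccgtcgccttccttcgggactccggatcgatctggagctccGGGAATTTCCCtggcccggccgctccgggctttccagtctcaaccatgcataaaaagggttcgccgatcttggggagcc
LCN2, chr9:128149203-128149452, plus strand: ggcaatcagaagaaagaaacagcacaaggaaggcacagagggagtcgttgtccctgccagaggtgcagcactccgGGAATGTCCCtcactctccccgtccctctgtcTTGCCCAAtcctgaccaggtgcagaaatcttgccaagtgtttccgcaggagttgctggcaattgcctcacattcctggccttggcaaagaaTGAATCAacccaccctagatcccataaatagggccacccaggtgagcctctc
In CXCL1 and CXCL3 a κB match began at position -79 from the start and in CXCL2 at -78, in each case GGGAATTTCC overlapped by its mirror match on the other strand 1 base further. CXCL2 also held a C/EBP match at -188, and LCN2 held GGAATGTCCC (κB) at -175, a C/EBP match at -143 and an AP-1 match at -52. The IL8 window held no match to the κB letters used and 1 to AP-1, TGACTCA at -137. It did hold tggaatttcc, which begins with t where those letters have G and so was not counted. The absence of a match is therefore no evidence that IL8 lacks a κB site. A κB match stood in 8 of the 15 called cytokine-list genes with a promoter in the table (53.3%) and in 9 of 30 genes that were higher by at least 1 (30%). The share was 15.6% over the 9344 tested genes with a promoter and 11.8% over all 27305 promoters. Among all called genes it was 17.9% of the higher and 17.8% of the lower ones, so the share did not separate the directions outside the largest changes. These matches describe letters in a window and show no binding.

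Interleukin 1 family genes and colony-stimulating factors rose as well. IL1B, the main secreted interleukin 1, had 102, 104 and 95.2 FPKM in fresh medium and 391, 335 and 323 FPKM with residual medium (log2 difference 1.78, SE 0.07, adjusted p 8.64e-10). IL36G, an epithelial member of the family, had 1.22, 1.09 and 1.04 FPKM and then 7.97, 7.42 and 7.66 FPKM. IL1A was abundant from the start and rose from 390.1 ± 6.61 to 666 ± 29.1 FPKM. The receptor antagonist IL1RN, in the same chr2 span, had 6.33 ± 0.939 and 7.51 ± 1.4 FPKM and did not pass the threshold (log2 difference 0.21, adjusted p 0.19). CSF3, the growth factor of neutrophils, rose from 56.7, 70.9 and 67.4 FPKM to 208, 191 and 197 FPKM, CSF2 from 4.72 ± 0.486 to 13.1 ± 0.284 FPKM and LIF from 7.12 ± 1.12 to 22.9 ± 4.51 FPKM. IL6 rose from a mean of 0.464 to only 2.44 FPKM, so its transcript stayed scarce. CCL20, which attracts dendritic cells and T cells, rose from 13.1 ± 0.0908 to 28.2 ± 1.79 FPKM, and IL24 and IL23A by log2 differences of 1.06 and 1.03. The cytokine gene TNF was below the level tested, at 0.154 and 0.266 FPKM.

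Genes of the NF-κB, interleukin 17 and STAT3 response, most of them regulators inside the cell and some of them receptors or secreted proteases, had a smaller median difference. Of 44 listed genes 41 were tested, 28 were called higher and 1 (TLR3, log2 difference -0.22) lower, with a median of 0.36. TLR3 was not called, leaving 0 lower, with the replicate block, with size factors or without any single library other than residual-medium replicate 2. NFKBIZ, a nuclear co-activator of NF-κB at antimicrobial genes, had 17.3, 16.7 and 18.3 FPKM in fresh medium and 41.2, 44.7 and 44.7 FPKM with residual medium. SOCS3, an inhibitor of STAT3 signalling, had 6.81, 6.69 and 7.76 FPKM and then 18.3, 19 and 21.6 FPKM. ZC3H12A, an RNase that degrades cytokine transcripts, went from 28.5, 32.5 and 32.9 FPKM to 64.8, 62.7 and 64.8 FPKM. The log2 differences of these 3 genes were 1.27, 1.35 and 1.01. None of them overlapped between the groups, as was the case for 39.9% of all genes tested. They were named for large differences in the same libraries, so this separation is no finding. Inhibitors of the pathway rose less: TNFAIP3 from 47.5 ± 5.83 to 75.2 ± 8.18 FPKM, NFKBIA from 48.3 ± 1.07 to 75.9 ± 2.51 FPKM, TNIP1 from 74.9 ± 4.01 to 124 ± 2.69 FPKM and BCL3 from 8.51 ± 0.914 to 14.2 ± 1.47 FPKM. The subunits NFKB2 and RELB rose by 0.51 and 0.36, and the mitochondrial superoxide dismutase SOD2 by 0.73. BCL2A1, an anti-apoptotic NF-κB target outside this list, had 1.38, 1.77 and 2.31 FPKM in fresh medium and 7.88, 8.56 and 9.73 FPKM with residual medium (log2 difference 1.79).

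Cornified envelope genes and keratins changed in both directions. Of 65 listed envelope genes 24 were tested, with 11 called higher, 3 lower and a median of 0.27; after removal of the length trend 15 were higher and 2 lower, and without fresh-medium replicate 1 the lower ones numbered 1. SPRR2A, a small proline-rich envelope protein, had 1.92, 1.57 and 2.04 FPKM in fresh medium and 17.8, 21.9 and 23.4 FPKM with residual medium. SPRR2D had 2.32, 3.23 and 3.83 FPKM and then 17.5, 20.6 and 20.4 FPKM, and SPRR2E 0, 0.24 and 0.108 FPKM and then 3.01, 3.82 and 3.75 FPKM. No library of one group reached the other group for any of these copies, which was part of the rule that named them. Their similar sequences make the division of reads between them uncertain. With SPRR1B they were the 4 genes tested in the hg19 span chr1:152956557-153123345, and all 4 were called higher. The protease inhibitors SERPINB1 and SERPINB2 rose from 10.8 ± 0.403 to 26.9 ± 0.974 FPKM and from 47.5 ± 4.24 to 108 ± 26.7 FPKM, and the barrier transcription factor GRHL3 from 1.04 ± 0.241 to 2.74 ± 0.30 FPKM. Periplakin (PPL), which links the envelope to keratin filaments, fell from 11.6 ± 0.711 to 7.66 ± 0.566 FPKM. Envelope genes of terminal differentiation were scarce: IVL had 0.577 and 1.67 FPKM and LOR had 0 reads in all 6 libraries.

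The basal keratins KRT5 and KRT14 fell while the wound-associated keratin KRT6B rose. KRT15 and KRT17, also on the basal marker list, were not called. Of 14 listed keratins tested 5 were called higher, 2 lower and 7 neither, with a median of 0.16. KRT5, the basal layer keratin and one of the most abundant transcripts, had 1869, 1786 and 1756 FPKM in fresh medium and 1043, 890.2 and 879 FPKM with residual medium (log2 difference -0.95, SE 0.07, adjusted p 5.55e-07). Its partner KRT14 had 481, 486 and 479.9 FPKM and then 401, 285 and 292 FPKM, with residual-medium replicate 1 nearer to the fresh-medium libraries than the others. KRT6B, which is induced in wounded epithelium, rose from 22.8, 25 and 22.3 FPKM to 53.1, 54.4 and 51.8 FPKM, and KRT6A from 511 ± 20.1 to 625 ± 35.1 FPKM. Duct keratins did not move together: KRT7 rose from 752 ± 49.5 to 1068 ± 92.3 FPKM, while KRT19 had 955 ± 63.3 and 1048 ± 84.3 FPKM and did not pass the threshold. Of 8 duct markers tested 3 were called higher (EPCAM, KRT7 and SOX9) and none lower, and of the 10 basal markers 3 were called lower (KRT5, KRT14 and ITGB4) and 1 higher (LAMB3). The basal regulator TP63 had 73.9 ± 2.49 and 69.8 ± 2.2 FPKM (adjusted p 0.405). Whether the marker levels bear on the other changes was not tested. In a bulk library fewer cells of a kind and less RNA per cell cannot be told apart.

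**Figure D2:**
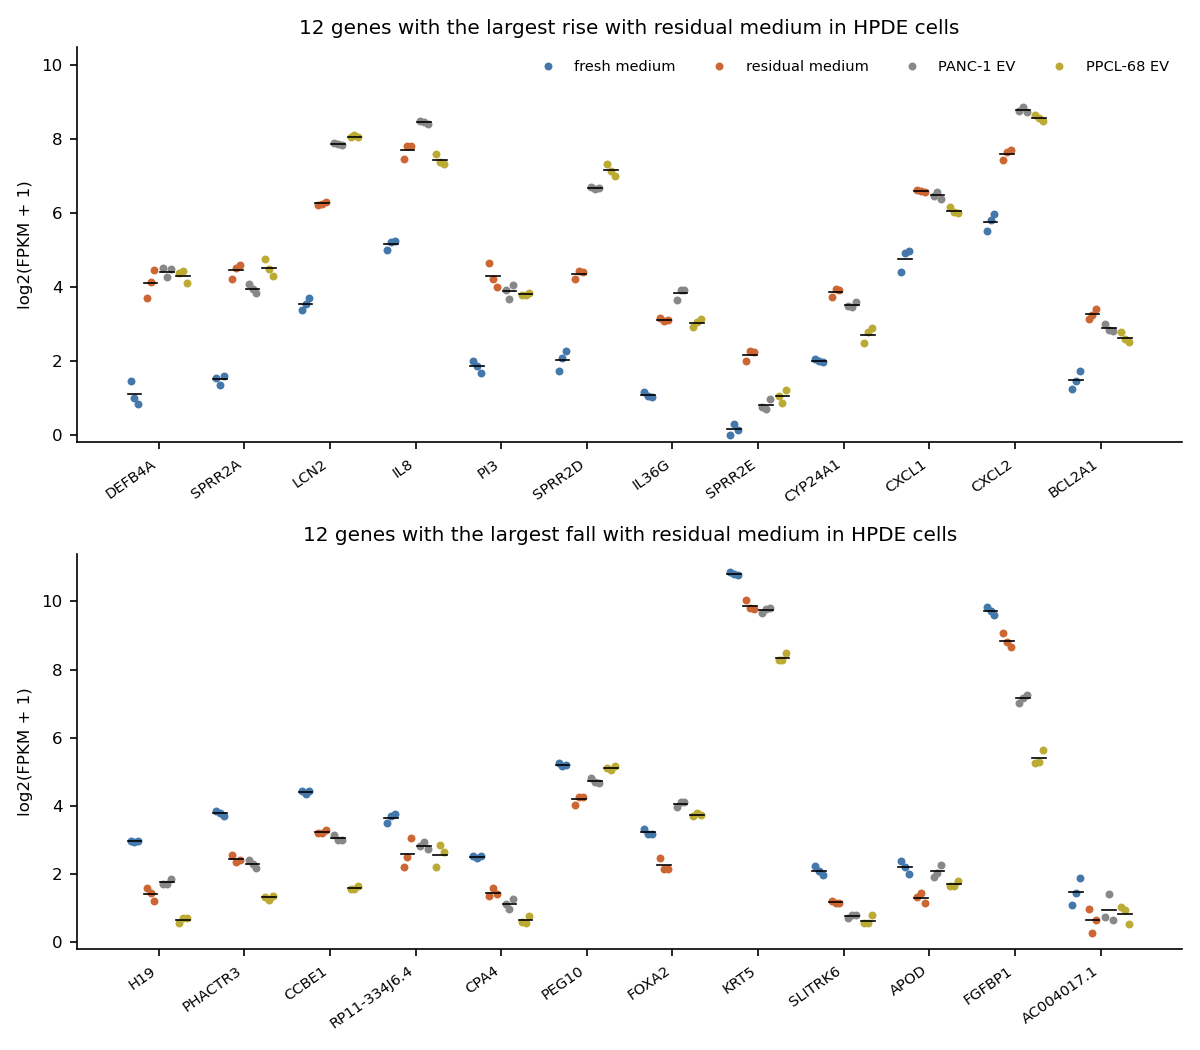
Each point is 1 library on the log2(FPKM + 1) scale, in the 4 HPDE treatments, and the black lines are group means of 3 libraries; the upper panel holds the 12 largest rises with residual medium and the lower panel the 12 largest falls. For every gene shown the fresh-medium and residual-medium points do not overlap, which was part of the rule that chose them and is no finding; the vesicle-treated libraries are shown beside them.

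Among the largest rises outside those groups, CYP24A1, which inactivates vitamin D, had 3.13, 2.99 and 2.92 FPKM in fresh medium and 12.2, 14.3 and 14.3 FPKM with residual medium. IGFBP3, a binding protein of insulin-like growth factors, rose from 2.13 ± 0.17 to 8.5 ± 1.56 FPKM and the hyaluronan synthase HAS2 from 1.75 ± 0.151 to 7.32 ± 0.16 FPKM. The retinol-related reductase DHRS3 rose from 3.06 ± 0.329 to 11 ± 0.903 FPKM and the tight junction gene CLDN4 from 3.48 ± 0.356 to 7.95 ± 0.286 FPKM. All of these had groups that did not overlap, as did all 56 genes past 1, against 39.9% of all genes tested. The 56 were chosen by the size and p-value of their difference in the same libraries. Their separation is therefore largely built into the choice and is no finding.

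The largest fall was that of H19, an imprinted long non-coding RNA (ENSG00000130600, chr11:2016406-2022700). It had 6.8, 6.74 and 6.89 FPKM in fresh medium and 2.0, 1.73 and 1.3 FPKM with residual medium, 4.06-fold lower by the means (log2 difference -1.55, SE 0.09, adjusted p 4.44e-08). PEG10, a paternally expressed gene derived from a retrotransposon, had 37.1, 34.9 and 35.5 FPKM and then 15.3, 18.2 and 18.4 FPKM. Of 12 imprinted genes tested, H19, PEG10 and IGF2R were called lower, GRB10 higher and 8 neither, with a median of -0.11. IGF2R lost its call after removal of the length trend, but the list then had 4 lower and 1 higher. With length and GC trends removed 5 were lower. PHACTR3, a phosphatase regulator, fell from 13.5, 12.8 and 12 FPKM to 4.95, 4.09 and 4.3 FPKM. CCBE1, a secreted factor of lymphatic growth, fell from 20.6, 19.3 and 20.8 FPKM to 8.28, 8.18 and 8.86 FPKM. FGFBP1, a carrier that releases fibroblast growth factors from matrix, was abundant and fell from 905, 838 and 775 FPKM to 541, 445 and 404 FPKM. All 5 of these genes had separate groups of libraries, which was part of the rule that named them and is no finding. FOXA2, a transcription factor of endoderm, fell from 8.37 ± 0.59 to 3.84 ± 0.659 FPKM, and CPA4, SLITRK6 and APOD by 1.06, 0.93 and 0.89 on the log2 scale. The short sense-intronic gene RP11-334J6.4 and AC004017.1 also stood among the 12 largest falls, with 12 to 44 and 2 to 28 reads per HPDE library; without strand their reads cannot be told from those of overlapping genes.

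Interferon-stimulated genes rose modestly and only in part. All 48 listed genes were tested, 19 were called higher and 0 lower by limma (also 0 lower at an unadjusted p under 0.05 and by voom), with a median of 0.18; the higher number was 11 without fresh-medium replicate 3 and 12 without residual-medium replicate 1. OASL, an RNA-binding antiviral protein, rose from 51.6, 49.5 and 45.5 FPKM to 95.8, 92.3 and 84.9 FPKM, and the exonuclease ISG20 from 5.4 ± 0.0901 to 10.3 ± 0.843 FPKM. ISG15, a ubiquitin-like modifier, was abundant and rose from 841 ± 69.8 to 1159 ± 115 FPKM. The classical marker MX1 (291 ± 32 and 296 ± 17.6 FPKM) did not pass the threshold. Of 18 antigen presentation genes tested 6 were called higher, led by HLA-F and HLA-B (log2 differences 0.30 and 0.28), and the number was 3 after removal of the length trend and 2 without fresh-medium replicate 3 or residual-medium replicate 1; HLA genes resemble each other and their values are uncertain.

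Lipid synthesis genes were lower, by small amounts. Of 25 cholesterol synthesis genes tested 14 were called lower and 0 higher by limma (0 higher at an unadjusted p under 0.05 and by voom on recovered reads), with a median of -0.23. HMGCS1, an early enzyme of the pathway, had 90.4, 99.1 and 97.1 FPKM in fresh medium and 64.8, 76.3 and 76.1 FPKM with residual medium (log2 difference -0.40, adjusted p 0.000955), and the epoxidase SQLE fell from 73.9 ± 2.69 to 57.3 ± 1.89 FPKM. Of 19 fatty acid synthesis genes 11 were called lower and 3 higher, the latter 1 without fresh-medium replicate 1 or without any single residual-medium library. SCD, the desaturase that makes oleate, fell from 294, 297 and 276 FPKM to 173, 189 and 187 FPKM, FASN from 214 ± 8.57 to 158 ± 16.4 FPKM and ACSS2 from 27.4 ± 1.38 to 18.5 ± 0.865 FPKM. After removal of the length trend the cholesterol list had 14 lower and 1 higher and the fatty acid list 11 lower and 2 higher.

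Genes around the EGF receptor changed in both directions. Of 33 tested 11 were called higher and 9 lower, the latter 5 without residual-medium replicate 3. Of the ligands, 4 rose: HBEGF from 30.6, 33.4 and 33.2 FPKM to 59, 62.3 and 61.4 FPKM, TGFA from 67 ± 1.38 to 92.2 ± 1.54 FPKM, AREG from 128 ± 12.7 to 171 ± 16.6 FPKM and EREG from 131 ± 4.02 to 169 ± 10.3 FPKM. The receptor gene EGFR fell from 60.3, 56.3 and 57.6 FPKM to 37.2, 36.8 and 38.1 FPKM (log2 difference -0.62, adjusted p 5.66e-06). The feedback inhibitors ERRFI1, SPRED2, SPRY4 and DUSP6 were lower by 0.37, 0.31, 0.25 and 0.19 on the log2 scale, whereas the phosphatase DUSP1 rose from 10.9 ± 0.529 to 19.9 ± 0.666 FPKM.

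Of 39 tested TGF-β and BMP target genes 19 were called higher and 6 lower (median 0.16). ID1, a BMP-induced inhibitor of differentiation factors, had 24, 27.8 and 20.6 FPKM in fresh medium and 60.0, 53.4 and 53.2 FPKM with residual medium, and ID3 rose from 15.5 ± 0.886 to 29.3 ± 2.73 FPKM. The matrix protein gene FN1 (fibronectin) rose from 55.8 ± 3.18 to 79.6 ± 6.77 FPKM. THBS1 fell from 173, 174 and 169 FPKM to 106, 98.9 and 97.1 FPKM and the transcription factor SNAI2 from 67.1 ± 3.13 to 42.2 ± 1.43 FPKM, so targets of the pathway went both ways.

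Several proteases of the cell surface and matrix rose, and the integrin of the basal adhesion complex fell. Of 26 listed genes tested 12 were called higher and 7 lower. The urokinase gene PLAU had 79.1, 86.7 and 88.7 FPKM in fresh medium and 160.4, 164 and 165 FPKM with residual medium, and its receptor PLAUR 36.9, 39.1 and 40.0 FPKM and then 83.6, 81.8 and 84.5 FPKM. MMP1, the interstitial collagenase, had 17.7, 16.2 and 15.8 FPKM and then 58.1, 32.7 and 31.2 FPKM, so residual-medium replicate 1 lay well above the other 2. MMP9 rose from 12.6 ± 2.24 to 21.8 ± 3.28 FPKM and MMP14 from 156 ± 6.73 to 222 ± 4.23 FPKM. ITGA6 and ITGB4, the hemidesmosome integrin, fell from 205 ± 5.73 to 141 ± 3.27 FPKM and from 263 ± 15.4 to 193 ± 8.81 FPKM, while ITGA5 rose from 43.5 ± 1.44 to 60.2 ± 4.64 FPKM. Of 20 YAP and TEAD targets tested 4 were called higher and 6 lower.

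Metabolic and stress lists moved less. Of 38 glycolysis and hypoxia genes tested 14 were called higher and 2 lower (median 0.12), led by ANGPTL4 (24.1 ± 2.0 to 42.5 ± 9.03 FPKM) and the enolase ENO2 (7.92 ± 0.342 to 13.4 ± 0.345 FPKM). Of 33 ATF4 targets 6 were called higher and 7 lower: ATF3 rose by 0.72, and the amino acid transporters SLC7A11, SLC38A2 and SLC7A5 fell by 0.71, 0.56 and 0.35. Only 3 of 27 chaperone and degradation genes of the endoplasmic reticulum were called, SEC61B, XBP1 and DNAJB9, all higher by at most 0.35. Over all genes tested 9.93% were called higher. Without residual-medium replicate 2 the list had 5 called higher and 1 lower, and by voom on recovered reads 4 higher and 1 lower. At an unadjusted p under 0.05 by limma, 5 of these genes of the endoplasmic reticulum were higher and 4 lower. HSPA5, its main chaperone, had 346 ± 13.3 and 357 ± 12.6 FPKM (adjusted p 0.626), and DDIT3 7.44 ± 0.536 and 7.39 ± 1.5 FPKM. CDKN1A, a cell cycle inhibitor, rose from 52 ± 1.37 to 75 ± 2.51 FPKM. Of 65 ribosomal protein genes tested 1 (RPL30) was called, lower. It lost the call with the replicate block, with size factors and without any single library other than fresh-medium replicate 1, while 5 others were called higher by voom and 11 with only the 6 libraries compared. Of 12 genes of the mitochondrial genome 0 were called by limma (1, lower, at an unadjusted p under 0.05, by voom on recovered reads and without fresh-medium replicate 1). Of 21 heat shock genes 5 were called higher, of 24 NRF2 targets 4 higher and 4 lower, of 9 LXR targets 1 each way, and of 5 metallothionein and zinc genes 2 lower. These small counts rested on single libraries. The heat shock genes numbered 3 without fresh-medium replicate 2 or 3 or residual-medium replicate 2 or 3, and the zinc genes 1 without any single library other than residual-medium replicate 3. The NRF2 targets had 2 each way without fresh-medium replicate 1 and 2 lower without replicate 3 of either group. No LXR target was called in either direction without fresh-medium replicate 2 or 3 or residual-medium replicate 1 or 3, and none lower without fresh-medium replicate 1 or residual-medium replicate 2.

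Proliferation genes differed by small amounts. Of 40 mitosis genes tested 10 were called lower and 1 (AURKB) higher, with a median of -0.088. Over all genes tested 10.1% were called lower and 9.93% higher. The lower mitosis genes numbered 5 without fresh-medium replicate 1 or without residual-medium replicate 1. After removal of the length trend they numbered 7, and the median of the list was -0.12. MKI67, a marker of cycling cells with a long transcript, had 37.7, 36.3 and 37.6 FPKM in fresh medium and 26.3, 26.5 and 29.4 FPKM with residual medium. Of 48 DNA replication genes 5 were called higher and 3 lower, with a median of 0.014, and 3 were higher and 0 lower after removal of the length trend. Without any single library the lower ones numbered 0 or 1, and the higher ones 2 or 3 without replicate 2 or 3 of either group.

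**Figure D3:**
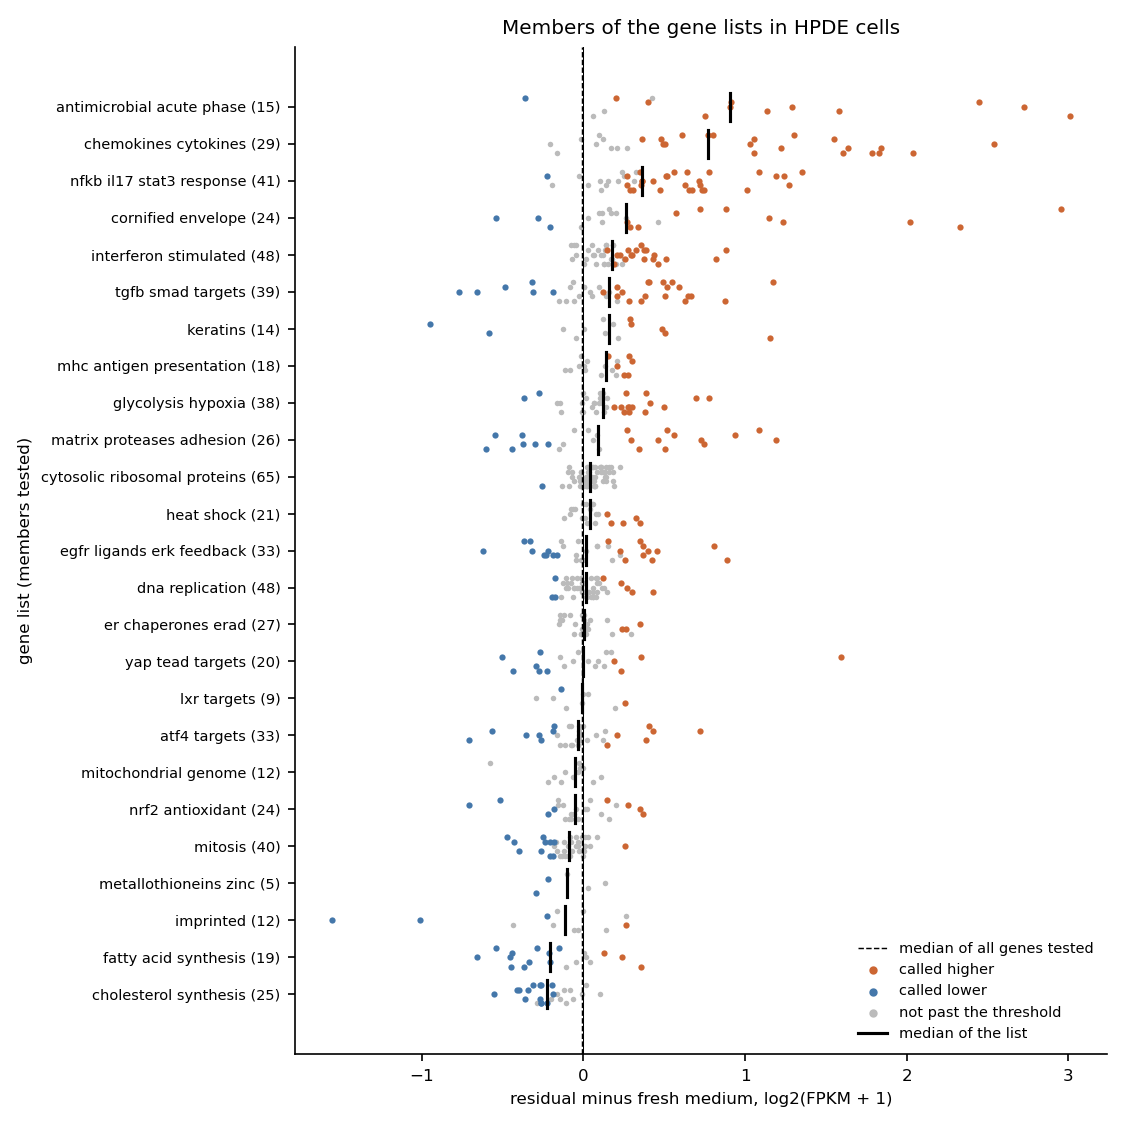
Each point is 1 tested gene of a list, placed by its log2(FPKM + 1) difference of residual minus fresh medium, with called genes in colour, black bars at list medians and a dashed line at the median of all genes tested; lists on the y axis are ordered by median, with the number tested in brackets, and some genes stand on more than 1 list. The antimicrobial (0.91) and cytokine (0.77) medians lie farthest right and those of fatty acid (-0.21) and cholesterol synthesis (-0.23) farthest left.

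A dependence on gene length ran through the comparison. Across the 12223 genes, which are not independent replicates, Spearman's rho between the log2 difference and gene length was -0.341, and it was 0.307 with transcript GC content over the 11943 genes that had a value. In the shortest length decile of protein-coding genes (33 to 1570 bases) the median log2 difference was 0.082, with 19.1% of genes called higher and 2.27% lower. In the longest decile (6809 to 29630 bases) it was -0.16, with 2.91% called higher and 39.9% lower. Each of the 3 residual-medium libraries showed it: rho between a library's deviation from the mean of the 12 and gene length was -0.285, -0.216 and -0.259, against 0.052, -0.023 and -0.031 in the fresh-medium libraries. With PANC-1 vesicles rho was 0.200, -0.021 and 0.079, and with PPCL-68 vesicles 0.097, 0.059 and 0.221. Libraries of one vesicle treatment thus differed in this trend. In HPNE the medians of the same deciles were 0.051 and -0.049. Its part in the small differences of long genes was not tested. Removing a smooth trend with length from each library, an alternative added after the data were seen, left 1886 called genes, of which 1620 were among the 2443. The leading rises and falls were nearly as large after this step: 52 genes were past 1, the difference of each of the 12 largest rises and 12 largest falls moved by at most 0.11, LCN2 had an adjusted p of 2.1e-12 and KRT5 of 4.5e-07. COL7A1, CENPF, MKI67 and ACACA, all long genes, kept their calls with log2 differences that shrank from -0.49 to -0.32, -0.47 to -0.29, -0.43 to -0.24 and -0.45 to -0.27, and FLG, ZMAT3, IGF2R, BRCA1 and POLE were no longer called.

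**Figure D4:**
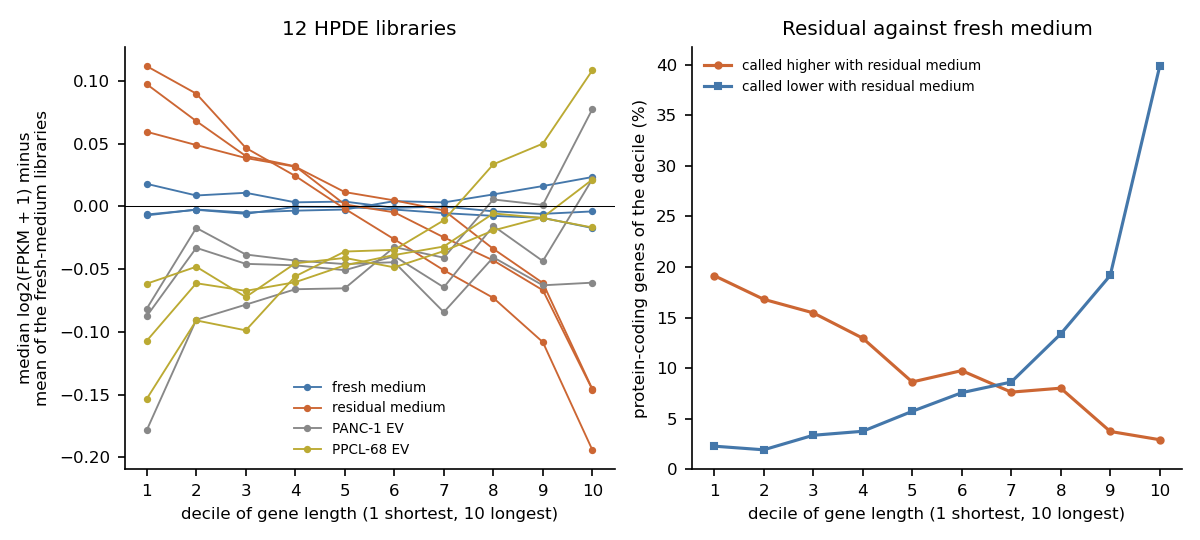
Left, the median log2(FPKM + 1) of each HPDE library minus the mean of the fresh-medium libraries, for protein-coding genes in deciles of gene length on the x axis; right, the percentage of each decile called higher or lower with residual medium. The 3 residual-medium libraries run from 0.060 to 0.112 in the shortest decile down to between -0.145 and -0.194 in the longest, and the share called lower climbs to 39.9%.

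The change with residual medium was then compared with that in HPNE cells by the interaction term of one fit of all 24 libraries. Of 10483 genes tested in both lines 3995 (38.1%) differed in their response, 2038 with the HPDE value above and 1957 below the HPNE value; after division by size factors the split was 1706 and 2660. In HPNE, replicate 3 lay apart in both groups: its root mean square log2 distance to the other replicates was 0.326 and 0.334 in fresh medium and 0.455 and 0.460 with residual medium, against 0.143 and 0.139 between replicates 1 and 2. Without that residual-medium library 5244 genes differed, and without that fresh-medium library 4629. Cytokine genes rose less in HPDE on the log2 scale. Of 16 listed genes tested in both lines 10 had the HPDE value below and 3 above the HPNE value. In HPNE 12 of these 16 were called higher and 2 lower. IL8 had a log2 difference of 2.54 in HPDE and 8.43 in HPNE (difference -5.89, SE 0.32, adjusted p 3.93e-10), and its FPKM in fresh medium was 3.21 in HPNE against 35 in HPDE. CXCL1 had 1.84 and 6.68, IL1B 1.78 and 3.86 and LIF 1.55 and 2.67. All 40 mitosis genes had a smaller response in HPDE than in HPNE, where all 40 were called higher, and so did 43 of 46 DNA replication genes. The mitosis count was 40 without replicate 3 of either HPNE group, 39 and 38 without residual-medium replicates 1 and 2 of HPNE, and 23 when only the 12 libraries of fresh and residual medium were fitted; the DNA replication count was then 34. Of 35 interferon-stimulated genes tested in both lines 15 had the HPDE value above the HPNE value and 1 below it. In HPNE 1 of these 35 was called higher and 14 lower, so such a difference need not be a larger rise in HPDE. The cholesterol list differed between the lines for 2 of 24 genes. LCN2, the SPRR2 genes, PI3, KRT5 and IL36G were not expressed highly enough in HPNE for this test.

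**Figure D5:**
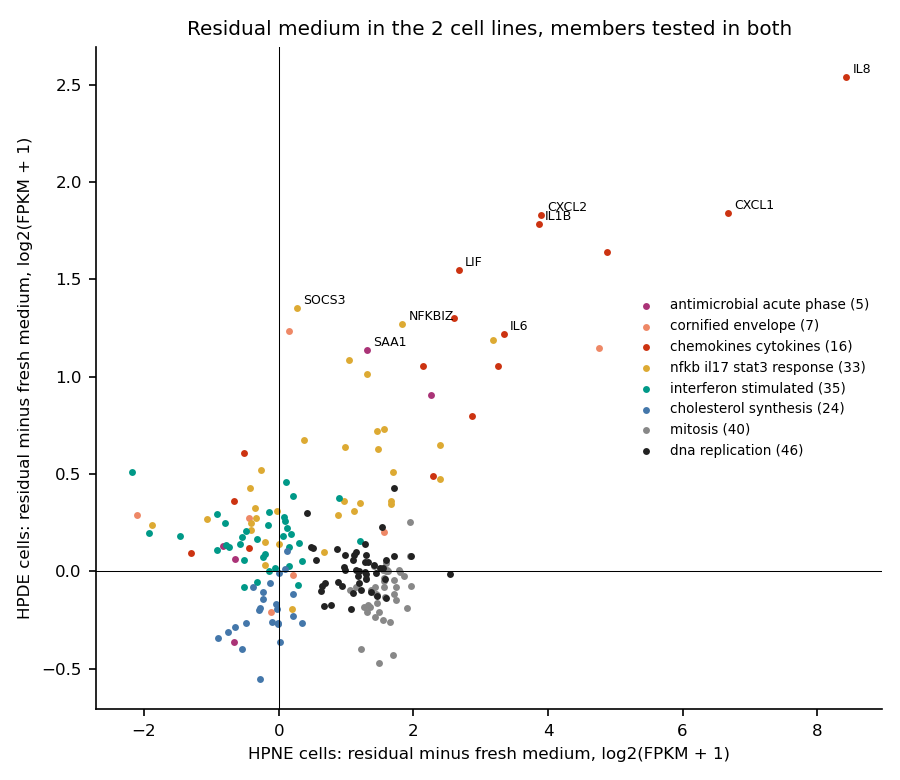
Each point is 1 listed gene tested in both lines, with the log2(FPKM + 1) difference of residual minus fresh medium in HPNE on the x axis and in HPDE on the y axis; numbers in brackets count the genes of a list. Cytokine genes reach 8.43 in HPNE and 2.54 in HPDE (IL8), and mitosis and DNA replication genes lie to the right of 0 in HPNE and near 0 in HPDE.

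The vesicle-treated HPDE libraries share these controls, so their values are given side by side only. LCN2 had 10.7 ± 1.28 FPKM in fresh medium, 76.1 ± 2.03 with residual medium, 233 ± 4.27 with PANC-1 vesicles and 269 ± 6.98 with PPCL-68 vesicles. SPRR2E had 0.116 ± 0.12, 3.53 ± 0.451, 0.757 ± 0.189 and 1.08 ± 0.265 FPKM in the same order. The means of its more highly expressed copies were 1.84, 21.1, 14.6 and 22.2 FPKM for SPRR2A and 3.13, 19.5, 102 and 143 FPKM for SPRR2D. The division of reads between these copies is uncertain. KRT5 had 1804 ± 58.7, 937 ± 91.7, 861 ± 42.2 and 326 ± 26.8 FPKM. PEG10 had 35.8 ± 1.18, 17.3 ± 1.73, 25.7 ± 1.56 and 33.6 ± 1.17 FPKM. Of the 4 means, that of residual medium was the lowest for PEG10 and the highest for SPRR2E, but not for SPRR2A or SPRR2D. For LCN2 it lay between fresh medium and both vesicle treatments, and for KRT5 near the mean of PANC-1 vesicles.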

How the data were processed

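Total RNA was sequenced with a library kit that does not keep strand, per the labels' protocols. The authors deposited 1 table per library with an FPKM value, length, symbol, hg19 position and type for each gene, per the file headers; CASAVA, STAR, HTSeq, DESeq2 and the build hg19 are named in the submitters' processing notes, and versions and the annotation release are not given in the sources used here. Since FPKM divides by the total of a library, a change in a few abundant genes can shift all others. FPKM multiplied by length gave whole reads for 100% of values, within 0.05 reads, so reads on genes were recovered; intervals are not given, and depth covers counting error only.

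Groups and replicate numbers came from sample titles. Log2(FPKM + 1) of the 12 HPDE libraries was fitted by treatment with limma 3.58.1 in R 4.3.3 (lmFit, eBayes with trend, 8 residual degrees of freedom), two-sided, with Benjamini-Hochberg adjustment over the genes tested and a threshold of 0.05; this scale understates changes of weakly expressed genes. The difference between the cell lines was an interaction contrast in a fit of 24 libraries. Named genes were the 12 largest rises and falls among called genes whose groups did not overlap, and up to 4 called members in each direction from 26 gene lists; other genes past 1 and other list members were named after their values were seen. The members and lists were chosen with earlier results of these data known, and lists are described by counts and medians, with no test. Results of some genes and of 1 list are not reported here. GC content came from GENCODE transcripts, and promoters from RefSeq (GRCh38.p14), which held 9344 of the 12223 genes. No 2 libraries of a group agreed within sampling noise (chi-square per degree of freedom 3.90 to 11.2), so all counted as replicates.

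On simulated reads the fit recovered 22.8% of genes changed 1.2-fold (12215 genes tested), 84.3% of those changed 1.5-fold (12221 genes) and 95.5% of those changed 2-fold (12234 genes). In these runs 4, 7 and 8 unchanged genes were called. The simulation drew genes independently and held no trend with gene length, so these counts do not measure false calls in the real libraries. Alternatives were other filters, scalings, pseudocounts, a replicate block, limma voom on recovered reads and leaving out each library. Removal of a length trend, alone or with a GC trend, was added after the data were seen.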

Additional observations from a re-analysis of the deposited data

Results flagged for a closer look

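Of the 24 genes named for the size of their change, 9 were tested in both cell lines, and 6 of them differed in their response to residual medium by the interaction term in limma. Over all 10483 genes tested in both lines 38.1% differed. The genes were chosen by their HPDE effect, which is part of this contrast, so the count is a description only. IL8 had an HPDE effect minus HPNE effect of -5.89 (SE 0.32, adjusted p 3.93e-10), CXCL1 of -4.84 (adjusted p 1.68e-08) and CXCL2 of -2.07 (adjusted p 5.62e-05). On the log2 scale these neutrophil chemokines rose in both lines, and by more in HPNE. Their HPNE means in fresh medium were low, at 3.21, 0.777 and 0.924 FPKM in this order. In FPKM CXCL2 rose by more in HPDE (54.2 to 194) than in HPNE (0.924 to 28.3). IL8 and CXCL1 rose by more in HPNE in FPKM too. CCBE1 had -3.17 (adjusted p 5.57e-07), since it fell in HPDE by 1.17 on the log2 scale and rose in HPNE from 4.10 to 20.7 FPKM on average (log2 difference 2.00, adjusted p 0.000556). BCL2A1 had 1.26 (adjusted p 0.000713), with a rise of 1.79 in HPDE and a log2 difference of 0.54 in HPNE that did not pass the threshold (adjusted p 0.0512). Its HPNE libraries had 0.781, 0.649 and 1.06 FPKM in fresh medium and 1.85, 2.37 and 0.923 FPKM with residual medium, so that of the residual-medium libraries replicate 3 alone lay within the fresh-medium range. Replicate 3 stood apart in both HPNE groups, and without its residual-medium library the difference between the lines was 1.03 (adjusted p 0.000483). PEG10 had -0.80 (adjusted p 0.00536), with a fall of 1.01 in HPDE and -0.21 in HPNE (adjusted p 0.367). These 6 genes were chosen for their size in HPDE, and all 6 kept the call and direction without any single library of either line and with only the 12 libraries of fresh and residual medium.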

How the results depend on the processing

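The number of genes called was 2894 with voom on recovered reads, 2153 of 8437 with a minimum mean of 5 FPKM, 2580 with only the 6 libraries, 2409 with size factors, 2430 with a pseudocount of 0.1 and 2134 with length and GC trends removed. With no filter on low values it was 1527 of 30190 genes, and without single libraries it ranged from 1423 to 2110. Genes past 1 on the log2 scale numbered 96 with voom and 90 with a pseudocount of 0.1, both of which widen differences of weakly expressed genes, and 49 to 57 without single libraries. The replicate block gave 2028 called genes and 56 past 1; same-numbered fresh-medium and residual-medium libraries did not deviate together (correlations 0.004, -0.094 and 0.079 across genes), so the numbers were not taken as pairs. For the difference between the lines the counts ran from 3009 to 5244 of 10483 genes without single libraries, 3917 with the replicate block, and 4617 of 32977 genes with no filter, of which 2846 had the higher HPDE value.

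Of 147 called named genes 108 kept their call in all 15 alternatives that could test them and none reversed. With no filter 32 lost the call, with the length trend removed 12, with length and GC trends removed 17, with the replicate block 10, and without single libraries 16 to 24. Voom raised the differences of the weakly expressed SPRR2E from 2.02 to 5.15, DEFB4B from 1.58 to 4.23 and AC004017.1 from -0.83 to -1.70. Without fresh-medium replicate 1 SPRY1 changed from -0.33 to -0.19 and was no longer called. In the simulation changes of 1.2-fold lay mostly below what 3 libraries a group can detect.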
